A study of Marchantia polymorpha and Arabidopsis thaliana and Oryza sativa Japonica Group with 80 samples.

Results

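The genes described here are 37 Arabidopsis thaliana genes of the cell cycle and of DNA replication, chosen by their AGI identifiers (the locus numbers of the Arabidopsis genome) from the cyclins A, B and D3, the kinases CDKA and CDKB, the Aurora kinases, MCM2 to MCM7, PCNA, CDC20, KNOLLE and ribonucleotide reductase. They fall into 10 S phase genes, 19 mitotic genes, 4 A2 cyclins and 4 genes of cell cycle entry. Of the 37, 25 were in the table of the time course, which held 24060 genes, and all 25 were among the 15407 tested there. All 37 were among the 34218 genes of the mutant experiment, and 34 were among the 19316 tested there. The other 3 (CYCB2;1, CYCA2;1 and CDKB1;2) stayed under the filter on low counts in that experiment, with at most 21 counts in any library. Gene names come from a list made for this work, because the tables give identifiers alone.

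Both experiments used 7-day-old seedlings grown in liquid MS medium under continuous light and moved to medium with 100 mM NaCl. The time course holds Col-0, the common laboratory accession, with 2 libraries at each of 8 times, namely 0 h, the early times 1, 3, 6 and 12 h, and the late times 24, 48 and 72 h. The mutant experiment holds Col-0 and a line labelled wrky25/33, named for knockouts of the transcription factor genes WRKY25 and WRKY33, in 3 libraries for each genotype at 0, 2 and 24 h. The design text speaks of biological replicates, and the deposited sheet of the mutant experiment gives each replicate number its own batch. Whole seedlings were used, and neither experiment has untreated libraries after 0 h: a change since 0 h cannot be told apart from the passing of time, handling or growth. Fewer dividing cells and less RNA per dividing cell cannot be told apart in bulk seedlings either.

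A dividing plant cell licenses its replication origins by loading MCM2 to MCM7, the subunits of the replicative helicase, and copies its DNA with PCNA, the sliding clamp of the polymerases, and with deoxynucleotides made by ribonucleotide reductase. Genes of this S phase group are classical targets of E2F factors, which the retinoblastoma protein holds back until CDKA and D-type cyclins release them. Mitosis follows with the B-type cyclins and the plant-specific CDKB kinases, the Aurora kinases of the spindle and chromosomes, CDC20, which activates the anaphase-promoting complex, and KNOLLE (KN), the syntaxin of the forming cell plate. In seedlings these genes are expressed mainly in meristems and young organs, and salt is known to slow growth there.

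Depth ranged from 18404537 to 24148375 counted reads per library in the time course and from 17431071 to 41887006 in the mutant experiment. The salt response itself was visible at early times: RD29A, a classical gene of salt and drought response, averaged 31.3 CPM at 0 h and 1882 CPM at 1 h of the time course. Of RD29A and RAB18, a second salt gene, 0 were called at 48 and 72 h (median log2 fold changes 0.48 and 0.83). At 2 h of the mutant experiment both were higher in each genotype. At 24 h there RAB18 was higher (3.33 in Col-0 and 3.28 in the line). RD29A stood at -2.31 and -1.98, below its 0 h level, and was called lower with the batch in the model alone. At 24 h of the time course RD29A was called higher instead, with a median log2 fold change of 1.36 for RD29A and RAB18. This difference between the experiments was not tested. Of 12 meristem markers, 7 were in the time course table, and their summed level was 159.2 and 175.2 CPM (0 h), 129.0 and 106.2 (24 h), 111.3 and 97.4 (48 h), then 108.7 and 73.7 (72 h). In the mutant experiment the sum over the 12 was 129.9 to 153.8 CPM in Col-0 at 0 h and 73.8 to 110.7 at 24 h, against 120.4 to 138.8 and 88.8 to 91.0 in the labelled line. Most of the sum in the mutant experiment came from CLV1, SCR and KNAT1, and SCR was not among the markers tested in the time course. WUS, which defines the shoot organising centre, was at or near 0 in every library. The summed root markers CASP1, COBL9 and PIN2 lay between 13.98 and 47.82 CPM in the time course and between 1.80 and 11.67 CPM in the mutant experiment.

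The labels of the mutant line were checked by the targeted genes. WRKY25 had 41.2, 24.7 and 41.1 CPM in Col-0 at 0 h and 44.5, 33.2 and 42.0 CPM in the line labelled wrky25/33. WRKY33 had 30.0, 20.5 and 229 CPM in Col-0 at 0 h and 44.5, 30.7 and 164 CPM in the labelled line. Both transcripts were therefore as abundant in the line as in Col-0, and counts over a whole gene do not show where an insertion lies, so the group is called the labelled line throughout. The flower genes AG and AP3 were near 0 in the mutant experiment, whereas PI lay between 27.7 and 219.9 CPM.

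In the time course MCM2 to MCM7 fell early and came back, while most calls among the mitotic genes came late. At 3 h 6 of the 9 measured S phase genes, MCM2 to MCM7, were lower than at 0 h, against 6.54% of all genes. None of the 12 measured mitotic genes were. At 24 h 8 of the same 9 S phase genes were higher than at 3 h, against 13.7% of all genes. At 24 h the genes called lower than at 0 h were 4 mitotic genes and no S phase gene, against 6.15% of all genes. Of these 4 calls only that of AUR2 held with each library left out. At 48 h MCM2 and the ribonucleotide reductase gene RNR1 were above their 0 h level (10.4% of all genes), and 3 mitotic genes were below theirs (11.6%). The calls of MCM2 and RNR1 each held in 1 of 4 repeats with a library left out. Those of AUR2, CYCB1;2 and CYCB2;1 held in 4, 2 and 0.

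MCM3 (AT5G46280) shows the S phase pattern library by library. It had 17.01 and 13.1 CPM (counts scaled to library size) at 0 h, 10.9 and 8.14 (1 h), 5.79 and 6.62 (3 h) and 8.28 and 9.14 (6 h). Its level was 7.53 and 6.76 CPM (12 h), 17.6 and 16.9 (24 h), 24.3 and 19.4 (48 h) and 20.07 and 12.2 (72 h). Both libraries of 1, 3, 6 and 12 h lay below both of 0 h, and both of 48 h lay above them. The log2 fold change of MCM3 at 3 h was -1.28 ± 0.24 (SE, 2 libraries per time, edgeR adjusted p = 0.00356), and it was -1.07 ± 0.24 at 12 h (adjusted p = 0.0262). From 3 to 24 h it rose by 1.48 ± 0.24 (adjusted p = 0.000907).

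MCM5 (AT2G07690) had 18.02 and 15.4 CPM (0 h), 14.3 and 9.47 (1 h), 8.12 and 7.44 (3 h) and 10.2 and 10.2 (6 h). At 12 h it was at its lowest mean, 7.28 and 6.71 CPM, and it then had 16.4 and 18.1 (24 h), 22.3 and 18.02 (48 h) and 18.6 and 14.0 (72 h). Its 3 h and 12 h libraries did not overlap those of 0 h, with log2 fold changes of -1.10 ± 0.21 (edgeR adjusted p = 0.0036) and -1.25 ± 0.21 (adjusted p = 0.0065). From 3 to 24 h MCM5 rose by 1.14 ± 0.21 (adjusted p = 0.00176).

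MCM2 (AT1G44900) had 17.3 and 15.2 CPM (0 h), 14.4 and 10.2 (1 h), 8.89 and 7.85 (3 h) and 11.7 and 13.6 (6 h). It went on with 10.3 and 8.45 CPM (12 h), 20.15 and 19.2 (24 h), 30.7 and 24.5 (48 h) and 25.8 and 17.7 (72 h). At 3 h it was lower by a log2 fold change of -0.95 ± 0.22 (edgeR adjusted p = 0.011). At 48 h both libraries lay above every library of 0 to 24 h, a log2 fold change of 0.77 ± 0.21 against 0 h (adjusted p = 0.023). Between 3 and 24 h it rose by 1.23 ± 0.22 (adjusted p = 0.0015).

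MCM6 (AT5G44635) fell most among the helicase genes at 3 h. Its libraries read 9.64 and 7.64 CPM (0 h), 6.12 and 3.95 (1 h), 3.46 and 2.34 (3 h), and 5.78 and 6.42 (6 h). Later libraries gave 4.50 and 3.84 CPM (12 h), 9.45 and 8.80 (24 h), 14.4 and 10.3 (48 h), and 13.2 and 6.26 (72 h). The log2 fold change was -1.56 ± 0.35 at 3 h (edgeR adjusted p = 0.00935) and 1.64 ± 0.35 from 3 to 24 h (adjusted p = 0.00451). The 72 h libraries lay on either side of those of 0 h.

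MCM4 and MCM7, the remaining helicase genes, had log2 fold changes of -0.997 ± 0.253 (edgeR adjusted p = 0.019) and -1.08 ± 0.27 (adjusted p = 0.0178) at 3 h. Their calls at 3 h were lost with any one of the 4 libraries left out, with adjusted p up to 0.105 and 0.102, whereas MCM3 and MCM5 kept theirs each time, with adjusted p up to 0.0399. MCM2 and MCM6 kept theirs in 2 of 4. From 3 to 24 h MCM4 rose by 1.16 ± 0.25 (adjusted p = 0.00516) and MCM7 by 0.99 ± 0.27 (adjusted p = 0.0169). MCM2 to MCM6 kept the rise from 3 to 24 h in 4 of 4 such repeats, RNR1 in 3, and MCM7 and PCNA1 in none, with adjusted p up to 0.0926 and 0.178.

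PCNA1 (AT1G07370), 1 of 2 near-identical clamp genes whose reads may be split by the counting, had 7.198 and 7.189 CPM (0 h), 3.51 and 6.74 (1 h), 2.98 and 3.87 (3 h) and 7.05 and 6.54 (6 h). At 12 h it had 5.05 and 3.58 CPM, then 7.27 and 6.74 (24 h), 12.0 and 8.97 (48 h), and at 72 h 8.99 and 4.97. The 3 h value of -1.08 ± 0.34 on the log2 scale missed the threshold (edgeR adjusted p = 0.0502), and the rise of 1.04 ± 0.34 from 3 to 24 h passed it (adjusted p = 0.0374). PCNA2 (AT2G29570) moved less: its 3 h value was -0.51 ± 0.20 (adjusted p = 0.121) and its step from 3 to 24 h 0.36 ± 0.20 (adjusted p = 0.222).

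RNR1 (AT2G21790), the large subunit of ribonucleotide reductase, had 48.4 and 46.8 CPM (0 h), 31.6 and 30.2 (3 h), 31.0 and 24.3 (12 h), 59.4 and 58.3 (24 h), and 89.5 and 68.3 (48 h). Its 3 h libraries lay below those of 0 h, and the value of -0.62 ± 0.21 on the log2 scale did not pass the test (edgeR adjusted p = 0.0697). It rose by 0.93 ± 0.21 from 3 to 24 h (adjusted p = 0.00677) and stood 0.73 ± 0.21 above 0 h at 48 h (adjusted p = 0.0276). That call at 48 h, like the one of MCM2, held in 1 of 4 repeats with a library left out.

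The lowest mean of the 8 times fell at 3 h for 6 of the 9 S phase genes and at 12 h for the other 3 (MCM5, PCNA2 and RNR1). The highest mean fell at 48 h for 9 of 9. At 6 h 9 of 9 still had negative log2 fold changes, with a median of -0.44, and edgeR called none of them, while DESeq2 called MCM3 and MCM5 lower. At 24 and 72 h edgeR called none of the 9 against 0 h.

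**Figure D1:**
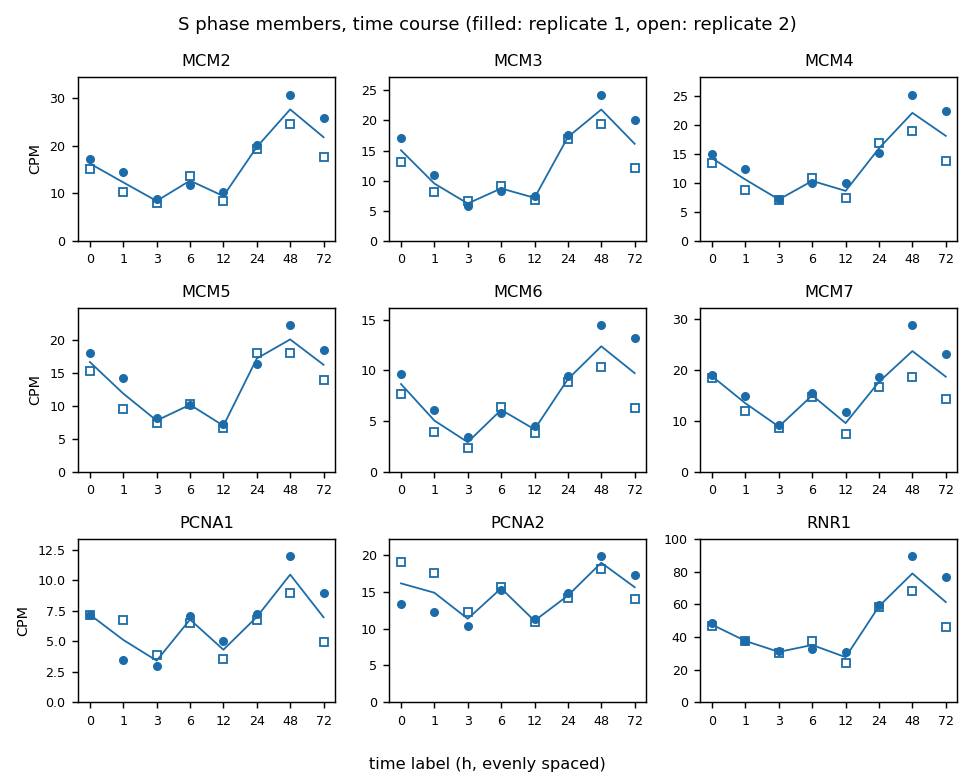
Level of each S phase gene in CPM (y axis, from 0) at each time label in hours (x axis, evenly spaced) of the Col-0 time course. Filled circles are replicate 1, open squares replicate 2 and lines join the means of the 2 libraries. MCM3 drops from 17.01 and 13.1 CPM at 0 h to 5.79 and 6.62 at 3 h and reaches 24.3 and 19.4 at 48 h.

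Among the mitotic genes AUR2 (AT2G25880), 1 of a pair of closely related Aurora kinases of the spindle whose reads may be shared with AUR1, was lower from 12 h on, with the lowest log2 fold changes of the 12 at 24 and 48 h. It had 7.59 and 8.89 CPM (0 h), 8.87 and 8.69 (1 h), 9.25 and 9.14 (3 h) and 5.67 and 5.51 (6 h). From there it had 3.66 and 3.94 CPM (12 h), 2.38 and 2.01 (24 h), 2.05 and 2.10 (48 h) and 2.84 and 2.73 (72 h). No library after 3 h reached the level of any library before 6 h. The log2 fold change against 0 h was -0.56 ± 0.16 at 6 h (edgeR adjusted p = 0.064), -1.11 ± 0.17 at 12 h (adjusted p = 0.00416), reaching -1.90 ± 0.17 by 24 h (adjusted p = 0.000185). It was -1.99 ± 0.17 at 48 h (adjusted p = 4.8e-05), then -1.56 ± 0.17 by 72 h (adjusted p = 0.000156). Leaving out any of the 4 libraries kept the calls at 24, 48 and 72 h, and between 3 and 24 h AUR2 fell by 2.06 ± 0.17 (adjusted p = 1.66e-05).

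CYCB1;2 (AT5G06150), a B1 cyclin that partners mitotic kinases, was lower already at 1 h. Its level was 5.02 and 5.54 CPM (0 h), 2.66 and 2.49 (1 h), 3.58 and 4.33 (3 h) and 4.28 and 5.75 (6 h). Later it had 3.28 and 2.97 CPM (12 h), 3.03 and 2.50 (24 h), 2.65 and 2.36 (48 h) and 5.18 and 3.28 (72 h). The log2 fold change was -1.03 ± 0.25 at 1 h (edgeR adjusted p = 0.0161), -0.93 ± 0.25 at 24 h (adjusted p = 0.0311), then -1.07 ± 0.25 by 48 h (adjusted p = 0.0106). At 72 h one library was back in the 0 h range and the value was -0.31 ± 0.24 (adjusted p = 0.371). The calls of CYCB1;2 at 1 and 24 h were lost with any one library left out, with adjusted p up to 0.102 and 0.233.

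KN (AT1G08560) had 7.94 and 13.1 CPM (0 h), 5.66 and 8.99 (1 h), 8.08 and 12.8 (3 h) and 10.3 and 11.7 (6 h). It then had 7.16 and 6.76 CPM (12 h), 5.29 and 4.78 (24 h), 6.96 and 4.08 (48 h) and 9.20 and 4.92 (72 h). Its 24 h libraries lay below those of 0 h without passing the test, at -1.06 ± 0.37 on the log2 scale (edgeR adjusted p = 0.0815).

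CDKB2;1 (AT1G76540), a kinase of late G2 and mitosis, had 6.67 and 10.4 CPM (0 h), 6.80 and 7.53 (1 h), 5.47 and 8.32 (3 h) and 7.22 and 9.86 (6 h). At 12 h it had 6.95 and 6.04 CPM, then 5.53 and 4.38 (24 h), 6.27 and 4.33 (48 h) and at 72 h 7.82 and 5.71. The 24 h value of -0.78 ± 0.30 on the log2 scale missed the threshold (edgeR adjusted p = 0.104).

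CYCA1;1 (AT1G44110), an A-type cyclin of mitosis, had 3.19 and 2.45 CPM (0 h), 1.77 and 1.82 (1 h), 2.17 and 2.05 (3 h) and 2.78 and 2.24 (6 h). It had 1.89 and 1.49 CPM (12 h), 1.21 and 1.43 (24 h), 1.92 and 1.76 (48 h) and 2.30 and 1.09 (72 h). At 24 h it was lower by a log2 fold change of -1.09 ± 0.32 (edgeR adjusted p = 0.045). This call and those of 2 B2 cyclins, CYCB2;4 at 24 h (-1.07 ± 0.31, adjusted p = 0.0448) and CYCB2;1 at 48 h (-1.83 ± 0.59, adjusted p = 0.0435), were lost with any one library left out. CYCB2;1 rests on 23 and 17 counts at 0 h and 4 and 8 counts at 48 h.

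CYCB1;4 (AT2G26760) stayed between 1.53 and 3.50 CPM in all 16 libraries and was not called at any time. CYCB2;3, CDKB1;2, CDKB2;2 and AUR3 were likewise not called in any of the 9 comparisons of the time course. Their levels spanned 1.92 to 5.10 CPM for CYCB2;3, 0.703 to 1.76 for CDKB1;2, 2.74 to 5.81 for CDKB2;2 and 0.695 to 1.69 for AUR3. The lowest mean of the 8 times fell at 24 h for 5 of the 12 mitotic genes, at 48 h for 3, at 1 h for 2 and at 6 and 72 h for 1 each. Of the 5 meristem markers tested 1 was lower at 1 h (5.45% of all genes) and 0 were called at 3, 6 and 12 h. At 24, 48 and 72 h 1, 1 and 2 were lower, against 6.15%, 11.6% and 12.5% of all genes. KNAT1 was the 1 at 24 h (-0.77 ± 0.15 on the log2 scale, edgeR adjusted p = 0.00671). The part of the meristem in the mitotic values was not tested. Of the root markers COBL9 was lower at 24 h (mean 3.21 CPM before salt against 0.352, edgeR adjusted p = 0.0133). Of the green shoot markers RCA was lower then (-0.65 ± 0.17, edgeR adjusted p = 0.0245), and both also at 48 and 72 h. The other root markers were not called at 24 h, and 1 of the 3 had a positive value (0.44). The root sum was 23.2 and 30.2 CPM at 0 h and 20.6 and 24.8 at 24 h.

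**Figure D2:**
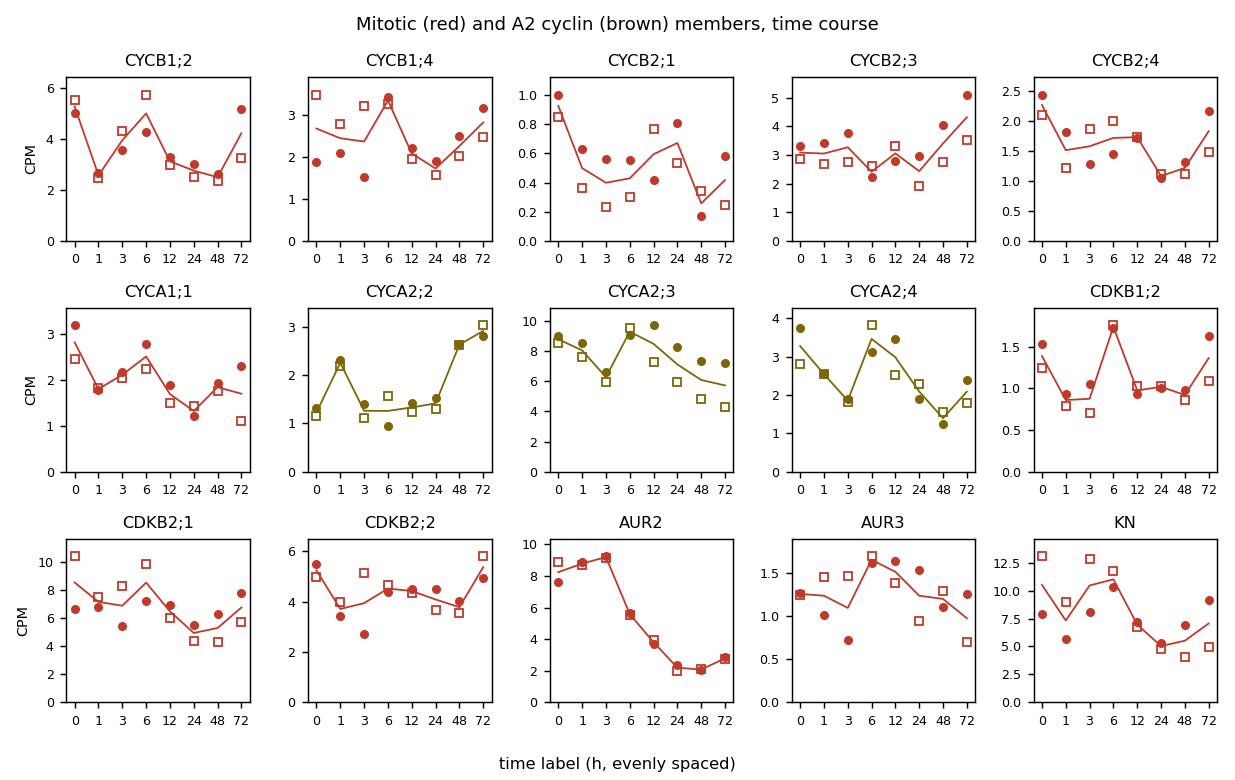
Level of each mitotic gene (red) and A2 cyclin (brown) in CPM (y axis, from 0) at each time label in hours (x axis, evenly spaced) of the Col-0 time course. Filled circles are replicate 1, open squares replicate 2 and lines join the means of the 2 libraries. AUR2 goes from 9.25 and 9.14 CPM at 3 h to 2.38 and 2.01 at 24 h, whereas most other panels show overlapping times.

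The A2 cyclins, which act from S phase to mitosis and in the switch to endoreduplication, went different ways. CYCA2;2 (AT5G11300) had 1.31 and 1.15 CPM (0 h), 2.32 and 2.19 (1 h), 1.41 and 1.11 (3 h) and 0.944 and 1.57 (6 h). It had 1.43 and 1.23 CPM (12 h), 1.53 and 1.29 (24 h), 2.65 and 2.62 (48 h) and 2.80 and 3.03 (72 h). Both late times lay above all libraries of 0 h, by a log2 fold change of 1.09 ± 0.27 at 48 h (edgeR adjusted p = 0.014), then 1.24 ± 0.27 by 72 h (adjusted p = 0.00692). The 48 h call was lost with any one library left out, with adjusted p up to 0.106, and the 72 h call held in 3 of 4.

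CYCA2;4 (AT1G80370) had 3.75 and 2.80 CPM (0 h), 1.89 and 1.82 (3 h), 3.11 and 3.81 (6 h), 1.24 and 1.54 (48 h) and 2.38 and 1.79 (72 h). It was lower at 48 h, by a log2 fold change of -1.23 ± 0.27 (edgeR adjusted p = 0.00734), a call that held in 2 of 4 repeats with a library left out. CYCA2;3 (AT1G15570), known to restrain endoreduplication, lay between 4.27 and 9.72 CPM and was not called. CYCD3;2 (AT5G67260), the entry cyclin measured in the time course, stayed between 57.8 and 79.4 CPM and was not called at any time.

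The counts of called members are read against all genes tested. At 1 h 0 of 25 members were higher, against 8.74% of all genes, and 1 was lower (CYCB1;2), against 5.45%. At 3 h 0 were higher (8.5% of all genes) and 6 were lower (6.54% of all genes). At 6 h edgeR called none, against 4.26% of all genes higher and 2.24% lower, while 3 members were lower at an unadjusted p under 0.05 and DESeq2 called 2 lower. At 12 h 0 were higher (2.6% of all genes) and 3 were lower (AUR2, MCM3 and MCM5, against 1.64% of all genes). At 24 h 0 were higher (6.45%) and 4 were lower (AUR2, CYCA1;1, CYCB1;2 and CYCB2;4, against 6.15%).

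Later calls went both ways. At 48 h 3 members were higher (MCM2, RNR1 and CYCA2;2, against 10.4% of all genes) and 4 were lower (AUR2, CYCB1;2, CYCB2;1 and CYCA2;4, against 11.6%). At 72 h CYCA2;2 was higher, against 12.3% of all genes, and AUR2 was lower, against 12.5%. From 3 to 24 h 8 members rose (MCM2 to MCM7, PCNA1 and RNR1), against 13.7% of all genes, and AUR2 fell, against 13.9%. From 24 to 72 h edgeR and DESeq2 called 0 members, against 1.22% of all genes higher and 0.746% lower, with 4 members higher at an unadjusted p under 0.05.

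Set side by side, the S phase and the mitotic class changed places between 12 and 24 h. The median log2 fold change against 0 h of the 9 S phase genes was -0.48 (1 h), -1.08 (3 h), -0.44 (6 h), -0.79 (12 h), 0.08 (24 h), 0.53 (48 h) and 0.10 (72 h). For the 12 mitotic genes it was -0.51, -0.37, -0.12, -0.45, -0.70, -0.65 and -0.32 at the same times. The median over all genes tested stayed within 0.03 of 0 at each of these times. All 9 S phase genes had negative values at 1, 3, 6 and 12 h and none did at 48 h. The S phase median minus the mitotic median was thus 0.04 (1 h), -0.71 (3 h), 0.78 (24 h), 1.19 (48 h) and 0.42 (72 h), and 1.59 for the step from 3 to 24 h. These medians describe the chosen genes and carry no test.

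The 2 libraries of a time differed more for some times than for others. The S phase median per library, relative to the 0 h mean, was -1.03 and -1.04 (3 h), 0.08 and 0.12 (24 h), 0.73 and 0.31 (48 h), then 0.43 and -0.25 (72 h). For the mitotic genes it was -0.57 and -0.09 (3 h), -0.50 and -0.80 (24 h), -0.49 and -0.78 (48 h), then -0.07 and -0.62 (72 h). At 24 and 48 h both libraries thus put the S phase class above the mitotic class, and at 3 h both put it below. Replicate 2 was below replicate 1 for both classes at 48 and 72 h.

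**Figure D3:**
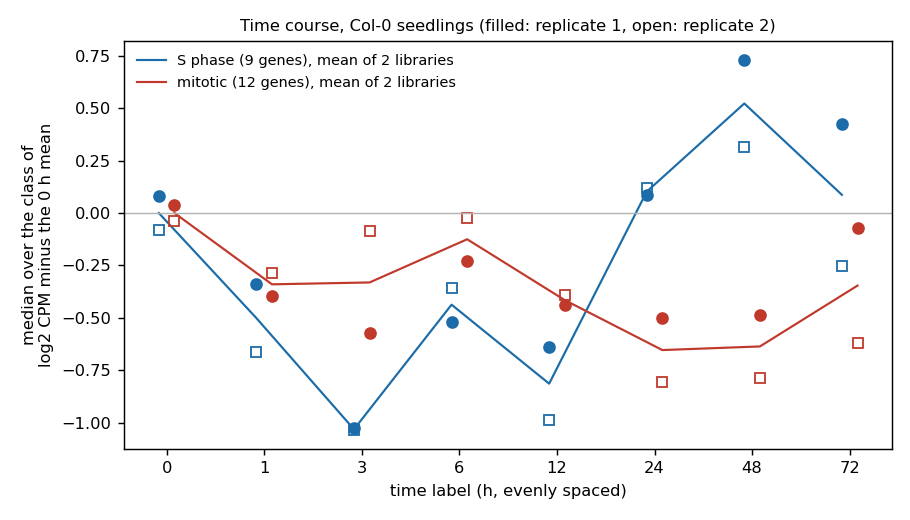
Median over the 9 S phase genes (blue) and over the 12 mitotic genes (red) of log2 CPM minus the gene's 0 h mean (y axis) at each time label in hours (x axis, evenly spaced). Filled circles are replicate 1, open squares replicate 2 and lines join the means of the 2 libraries. The blue points lie at -1.03 and -1.04 at 3 h and at 0.73 and 0.31 at 48 h, and the red points at -0.57 and -0.09 and at -0.49 and -0.78.

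The second experiment, with 3 libraries per group, also had an early fall of helicase genes. After 2 h of salt MCM2, MCM3, MCM5 and MCM6 were lower in Col-0 (3.83% of all genes) and the same 4 genes were lower in the labelled line (2.25%). No mitotic gene was called at 2 h in either genotype. At 24 h the genes called lower were 7 mitotic genes and CYCD3;1 in Col-0, but 6 mitotic genes and MCM5 in the labelled line, and with the shared batch in the model as a replicate block 7 of the 10 S phase genes were lower too in each genotype. The S phase genes at 24 h depended on the batch: they were near their 0 h level in batch 2 of Col-0 and well below it in batches 1 and 3. No member differed between the genotypes.

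MCM3 had, in Col-0, 9.09, 11.9 and 9.75 CPM at 0 h, 3.79, 3.65 and 2.61 at 2 h, then 5.66, 10.9 and 3.94 at 24 h (batches 1, 2 and 3 in turn). In the labelled line it had 7.60, 14.7 and 8.61 CPM at 0 h, 3.16, 5.62 and 4.24 at 2 h, then 6.92, 7.81 and 4.95 at 24 h. All 2 h libraries lay below all 0 h libraries of their genotype, and the 24 h library of batch 2 in Col-0 lay within the 0 h range. The log2 fold change at 2 h was -1.62 ± 0.35 in Col-0 (edgeR adjusted p = 0.0093) and -1.24 ± 0.35 in the line (adjusted p = 0.0453). With the batch as a replicate block MCM3 rose in Col-0 from 2 to 24 h by 0.96 ± 0.24 (adjusted p = 0.00948), and without it the value was 1.04 ± 0.35 (adjusted p = 0.0653).

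MCM5 had, in Col-0, 11.4, 16.7 and 19.1 CPM at 0 h, 5.02, 6.30 and 4.43 at 2 h, then 5.92, 15.2 and 5.54 at 24 h. The labelled line had 14.3, 15.8 and 16.5 CPM at 0 h, 6.47, 6.52 and 7.01 at 2 h, then 4.63, 10.3 and 6.89 at 24 h. The 2 h libraries did not overlap those of 0 h in either genotype, at -1.58 ± 0.35 in Col-0 (edgeR adjusted p = 0.01) and -1.22 ± 0.35 in the line (adjusted p = 0.0491). MCM5 was lower at 24 h in the line, at -1.10 ± 0.35 (adjusted p = 0.0373). That call held in 1 of 6 repeats with a library left out. In Col-0 MCM5 stood at -0.82 ± 0.34 (adjusted p = 0.107), where the block called it (adjusted p = 0.0211). The interaction, which tests that difference, was -0.29 ± 0.48 (adjusted p = 1).

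MCM2 had, in Col-0, 10.04, 10.8 and 8.65 CPM at 0 h, 3.10, 2.97 and 2.51 at 2 h, then 3.09, 11.3 and 3.89 at 24 h. The labelled line had 9.84, 10.6 and 10.7 CPM, then 2.63, 3.64 and 4.24, then 2.47, 7.64 and 5.09. At 2 h MCM2 was lower by -1.78 ± 0.43 on the log2 scale in Col-0 (edgeR adjusted p = 0.0158) and by -1.56 ± 0.42 in the line (adjusted p = 0.0375).

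MCM6 had, in Col-0, 6.66, 9.77 and 7.74 CPM at 0 h, 1.92, 2.07 and 2.90 at 2 h, then 2.25, 6.93 and 1.65 at 24 h. In the line it had 5.76, 8.07 and 7.77 CPM, then 2.09, 2.69 and 1.95, then 1.61, 4.82 and 3.10. The 2 h values were -1.81 ± 0.46 in Col-0 (edgeR adjusted p = 0.0207) and -1.68 ± 0.46 in the line (adjusted p = 0.0381), again with no overlap of the libraries. In both genotypes the batch 2 library was the highest at 24 h.

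PCNA1 was called at 2 h with the batch in the model and not without it. It had, in Col-0, 4.80, 7.92 and 6.09 CPM at 0 h, 2.35, 2.93 and 2.21 at 2 h, then 1.29, 8.16 and 1.23 at 24 h. In the line it had 4.42, 7.72 and 5.75 CPM, then 1.95, 2.17 and 0.973, then 2.10, 5.05 and 2.23. At 2 h in Col-0 PCNA1 stood at -1.33 ± 0.58 (edgeR adjusted p = 0.168) without the block and at -1.31 ± 0.41 (adjusted p = 0.029) with it.

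RNR1 stood at -0.94 ± 0.36 at 2 h in Col-0 (edgeR adjusted p = 0.109), and at -0.94 ± 0.24 with the block (adjusted p = 0.0115). TSO2 (AT3G27060), a small subunit of ribonucleotide reductase, was called in no comparison with or without the block. It had, in Col-0, 17.8, 28.1 and 12.8 CPM at 0 h, 13.3, 23.3 and 9.20 at 2 h, then 9.20, 36.7 and 5.65 at 24 h. In the line TSO2 had 14.98, 22.4 and 15.2 CPM, then 12.7, 14.4 and 9.26, then 7.53, 19 and 9.70. The spread between batches within a time was larger than the step between times. A test of TSO2 against RNR1 was not made.

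At 2 h in Col-0 4 of 34 members were lower, against 3.83% of all genes, and 0 were higher, against 5.76%. In the labelled line 4 were lower, against 2.25%, and 0 were higher, against 3.61%. With the batch as a replicate block 8 of the 10 S phase genes, and no other member, were lower at 2 h in Col-0 (11.6% of all genes) and 8 in the line (7.69%): MCM2 to MCM7, PCNA1 and RNR1. The median log2 fold change at 2 h was -1.42 for the S phase genes and -0.69 for the 17 mitotic genes in Col-0, and -1.23 and -0.24 in the line. Within batches 1, 2 and 3 of Col-0 the S phase median was -1.14, -1.42 and -1.41, and all 10 genes were negative in each. The mitotic median there was 0.13, -0.76 and -0.50. Without Col-0 2 h replicate 3 none of the 4 calls in Col-0 was left, and in the line 0 or 1 was left with any library out.

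**Figure D4:**
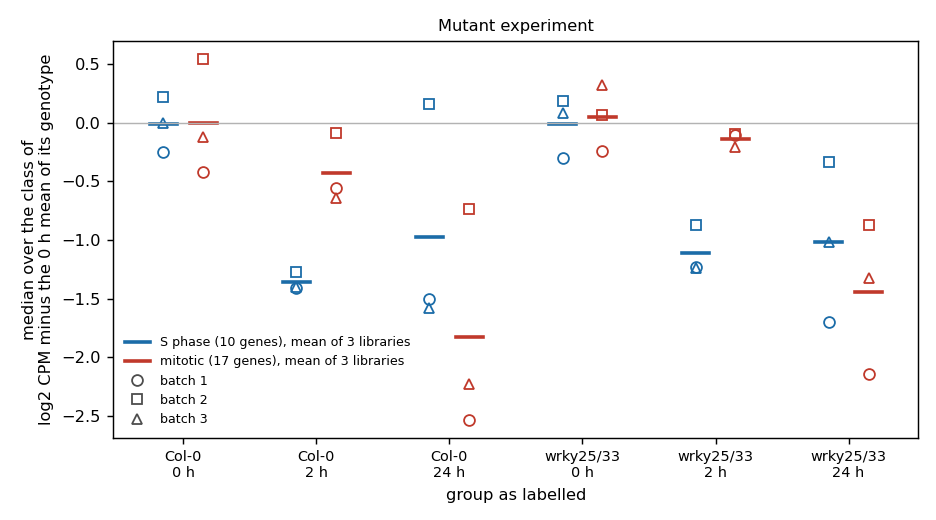
Median over the 10 S phase genes (blue) and the 17 mitotic genes (red) of log2 CPM minus the gene's 0 h mean of the same genotype (y axis) in each group of the mutant experiment (x axis). Circles, squares and triangles are the libraries of batches 1, 2 and 3 and bars their mean. At 24 h in Col-0 the blue points lie at -1.50, 0.16 and -1.58 and the red points at -2.53, -0.73 and -2.23.

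At 24 h 7 of the 17 mitotic genes tested were lower in Col-0 (8.34% of all genes), against 6 in the labelled line (8.43%). KN had, in Col-0, 2.43, 3.47 and 2.20 CPM at 0 h, 2.89, 2.48 and 2.90 at 2 h, then 0.386, 1.56 and 1.17 at 24 h. In the line KN had 2.40, 3.25 and 3.15 CPM, then 3.02, 1.51 and 3.08, then 0.701, 1.55 and 1.31. Its 24 h libraries lay below all 0 h libraries in both genotypes, at -1.36 ± 0.42 in Col-0 (edgeR adjusted p = 0.0346) and -1.33 ± 0.42 in the line (adjusted p = 0.0377). With a library left out, these calls of KN held in 1 of 6 repeats in Col-0 and 2 of 6 in the line.

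AUR2 had, in Col-0, 3.00, 3.64 and 3.02 CPM at 0 h, 5.18, 3.29 and 3.30 at 2 h, then 2.57, 1.32 and 0.639 at 24 h. In the line AUR2 had 3.19, 3.82 and 2.47 CPM, then 5.79, 5.24 and 3.08, then 1.83, 1.03 and 0.922. The step of AUR2 from 2 to 24 h was -1.39 ± 0.42 in Col-0 (edgeR adjusted p = 0.0384) and -1.87 ± 0.42 in the line (adjusted p = 0.00839). Against 0 h AUR2 was at -1.11 ± 0.42 in Col-0 (adjusted p = 0.0736, or 0.00724 with the block) and -1.29 ± 0.42 in the line (adjusted p = 0.0413). With a library left out, the call of AUR2 against 0 h in the line held in 1 of 6 repeats. Its calls from 2 to 24 h held in 1 of 6 in Col-0 and 6 of 6 in the line. Its relative AUR1 (AT4G32830) was lower at 24 h in Col-0 by -1.55 ± 0.43 (adjusted p = 0.0206), and stood at -1.10 ± 0.42 in the line (adjusted p = 0.0774, or 0.0387 with the block). The call of AUR1 in Col-0 held in 3 of 6 such repeats.

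The neighbouring genes CDC20.1 (AT4G33270) and CDC20.2 (AT4G33260) are near-identical, so that their counts are uncertain one by one. CDC20.2 had 2.05, 4.75 and 2.47 CPM in Col-0 at 0 h and 0.193, 1.18 and 0.320 at 24 h. It had 2.12, 2.68 and 3.35 CPM in the line at 0 h and 0.670, 1.26 and 0.728 at 24 h. CDC20.2 was lower at 24 h in both genotypes, at -2.41 ± 0.56 (edgeR adjusted p = 0.00953) and -1.64 ± 0.54 (adjusted p = 0.046). With a library left out, the calls of CDC20.2 held in 5 of 6 repeats in Col-0 and 0 of 6 in the line. CDC20.1 was at -2.31 ± 0.79 in Col-0 (adjusted p = 0.0528, or 0.0051 with the block), where 1 library had 0 counts at 24 h and the others 67 and 9, and lower in the line at -2.55 ± 0.82 (adjusted p = 0.0404). The call of CDC20.1 in the line held in 1 of 6 such repeats.

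The B cyclins were close to the limit of detection at 24 h. CYCB1;4 had, in Col-0, 1.24, 1.96 and 1.56 CPM at 0 h, 0.641, 1.76 and 0.541 at 2 h, then 0.0644, 0.425 and 0.0533 at 24 h, the last from 1, 9 and 1 counts. In the line it had 0.671, 1.62 and 1.66 CPM, then 1.119, 1.32 and 0.934, then 0, 0.287 and 0.291. It was lower at 24 h in both genotypes, with fitted log2 fold changes of -3.03 ± 0.81 (edgeR adjusted p = 0.0184) and -2.90 ± 0.82 (adjusted p = 0.0237) that depend on the prior count at such low levels. With a library left out, the call held in 3 of 6 repeats in each genotype. CYCB1;1 (AT4G37490), a G2 to M cyclin also known to answer DNA damage, had, in Col-0, 0.0951, 1.30 and 0.366 CPM at 0 h, 0.695, 0.315 and 0.344 at 2 h, then 0.257, 0.519 and 0.373 at 24 h. The line had 0.727, 0.878 and 0.877 CPM, then 0.827, 1.13 and 0.701, then 0.183, 0.574 and 0.485. The groups of CYCB1;1 overlapped in Col-0, and its 24 h value there was -0.68 ± 0.67 (adjusted p = 0.507).

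CDKB2;1 had, in Col-0, 2.38, 4.13 and 3.16 CPM at 0 h, 2.94, 3.15 and 3.54 at 2 h, then 0.322, 2.08 and 0.852 at 24 h. In the line CDKB2;1 had 2.63, 2.41 and 4.19 CPM, then 2.14, 3.31 and 4.01, then 0.610, 2.30 and 0.970. At 24 h in Col-0 the value was -1.54 ± 0.53 (edgeR adjusted p = 0.0528), and -1.62 ± 0.42 with the block (adjusted p = 0.00828).

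CYCA1;1 had, in Col-0, 0.428, 2.06 and 1.65 CPM at 0 h, 0.481, 0.765 and 0.246 at 2 h, then 0.0644, 0.755 and 0 at 24 h. In the line it had 0.727, 1.40 and 1.66 CPM, then 0.292, 0.425 and 0.856, then 0.0609, 0.344 and 0.194. Without the block it was not called at 24 h (edgeR adjusted p = 0.0862 in Col-0 and 0.0504 in the line), and with it CYCA1;1 was lower in both (adjusted p = 0.0199 and 0.00887).

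CYCB1;2, called at 1 h in the time course, had, in Col-0, 1.33, 5.43 and 2.24 CPM at 0 h, 1.71, 1.80 and 0.738 at 2 h, then 0.129, 1.60 and 0 at 24 h. In the line CYCB1;2 had 2.57, 2.50 and 3.83 CPM, then 0.730, 1.13 and 1.75, then 0.0305, 0.919 and 0.485. It was called at 24 h with the block alone, in both genotypes (edgeR adjusted p = 0.0279 and 0.0105).

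At 24 h in Col-0 8 of 34 members were lower, against 8.34% of all genes, and 0 were higher, against 10.4%. They were AUR1, CDC20.2, CYCB1;4, CYCB2;2, CYCB2;3, CYCB2;4 and KN of the mitotic class and CYCD3;1. In the labelled line 7 were lower, against 8.43%, and 0 were higher, against 10.1%. They were AUR2, CDC20.1, CDC20.2, CDKB1;1, CYCB1;4 and KN of the mitotic class and MCM5, so that 3 of the 8 and of the 7 were shared. With the replicate block 21 members were lower in Col-0 (17% of all genes), 12 of 17 mitotic, 7 of 10 S phase and 2 of 4 entry genes. In the line 20 were lower (17.9% of all genes), 12 mitotic, 7 S phase and 1 entry gene. The 7 S phase genes were MCM3 to MCM7, PCNA1 and RNR1 in Col-0, and MCM2 to MCM7 and RNR1 in the line.

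From 2 to 24 h 2 members were lower in Col-0 (AUR2 and KN, against 6.93% of all genes) and 2 in the line (AUR2 and CYCB1;4, against 6.34%), and 0 were higher, against 6.41% and 6%. With the block 8 members were lower in each genotype, against 13.4% and 12.6% of all genes. In Col-0 the 8 were mitotic genes, and in the line they were 7 mitotic genes and CYCA2;2. MCM3 in Col-0 and CYCA2;4 in the line were higher with the block, against 14.5% and 13.8% of all genes.

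The class medians at 24 h against 0 h were -0.75 for S phase and -1.63 for mitotic genes in Col-0, and -0.94 and -1.44 in the line. Within batches 1, 2 and 3 of Col-0 the S phase median was -1.33, -0.02 and -1.58 and the mitotic median -2.41, -1.36 and -2.17. In the line the S phase median was -1.47, -0.57 and -1.15 and the mitotic median -1.96, -1.03 and -1.58. The mitotic class was thus below the S phase class in every batch of both genotypes, while the depth of the S phase fall differed between batches. From 2 to 24 h the S phase median minus the mitotic median was 1.86 in Col-0 and 1.43 in the line. Single libraries moved the 8 calls at 24 h in Col-0: 26 members were called without the 24 h library of batch 2 and 0 without that of batch 3, 2 without that of batch 1 and 1 without the 0 h library of batch 2.

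Some meristem markers were lower at the same times. At 2 h 2 of the 10 tested, CLV1 and SHR, were lower in Col-0 (3.83% of all genes) and 0 in the line (2.25%). With the block 2 were lower in each (11.6% and 7.69% of all genes). At 24 h 2 of the 10 were lower in each genotype, again CLV1 and SHR (8.34% and 8.43% of all genes). With the block it was 5 in Col-0 (17% of all genes) and 3 in the line (17.9%). CLV1 fell from 48.2, 61.0 and 52.0 CPM to 15.6, 26.9 and 12.7 in Col-0. Among other tissue markers PI, a flower gene, was higher at 24 h than at 0 h in Col-0 (1.37 ± 0.34 on the log2 scale, edgeR adjusted p = 0.0137) and in the line (1.45 ± 0.35, adjusted p = 0.0107), with no overlap of the libraries. The root marker CASP1 was lower at 24 h in Col-0 (-1.91 ± 0.51, edgeR adjusted p = 0.0182). The other root marker tested stood at 0.16 there, and in the line 0 root markers were called at 24 h. Of the 3 green shoot markers edgeR called 0 at 24 h, and with the block 2 were higher in each genotype (18.7% and 18.4% of all genes). The part of these tissues in the changes of the members was not tested.

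**Figure D5:**
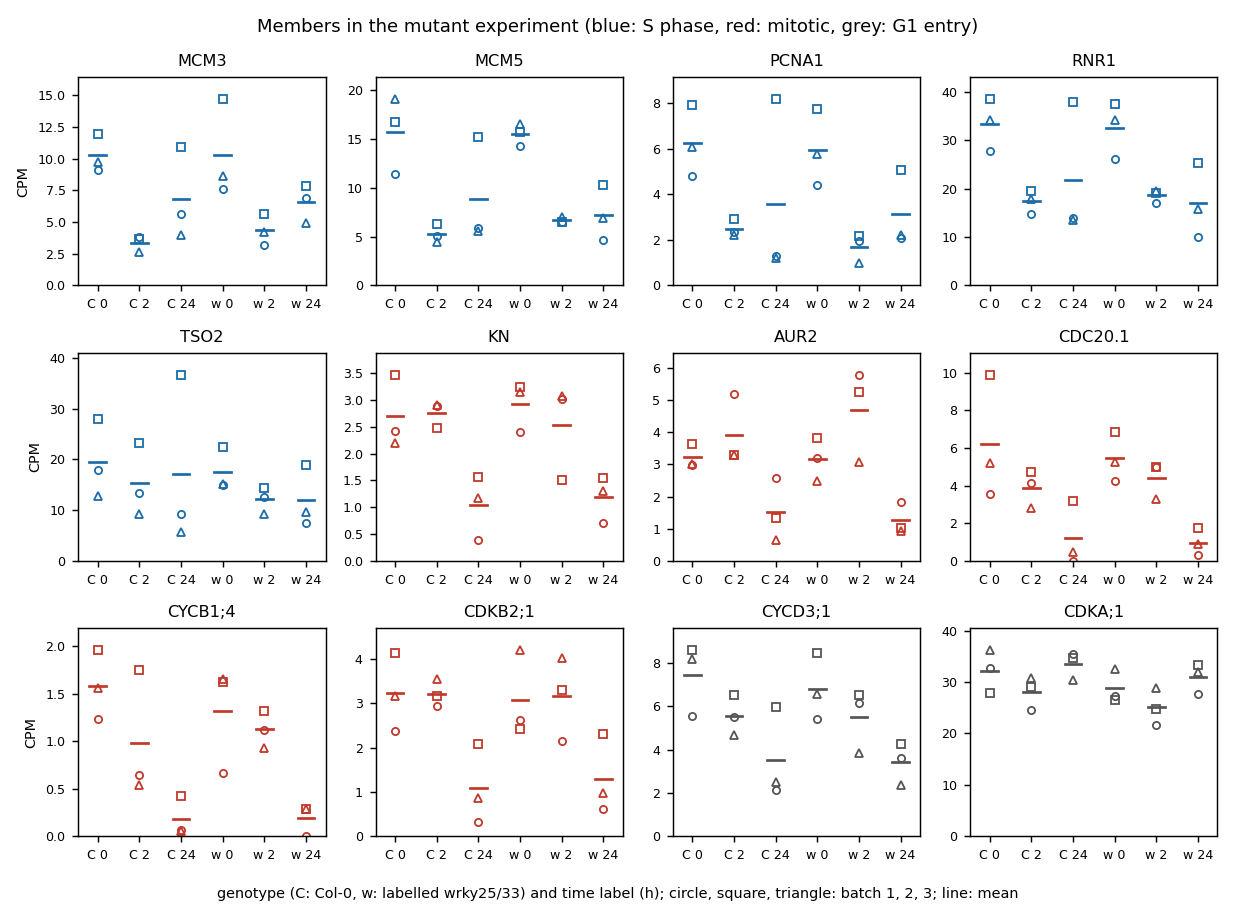
Level in CPM (y axis, from 0) of 12 members in the 6 groups of the mutant experiment (x axis, C for Col-0 and w for the labelled line, with the time in hours). Circles, squares and triangles are batches 1, 2 and 3 and bars the means. At 24 h in Col-0 the batch 2 library of PCNA1 (8.16 CPM) and RNR1 (37.9 CPM) stands apart from batches 1 and 3, and KN lies below its 0 h libraries in all 3 batches.

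Of the entry genes CYCD3;1 (AT4G34160), a D-type cyclin that activates CDKA, had, in Col-0, 5.57, 8.60 and 8.20 CPM at 0 h, 5.50, 6.53 and 4.67 at 2 h, then 2.12, 5.99 and 2.50 at 24 h. In the line CYCD3;1 had 5.42, 8.47 and 6.60 CPM, then 6.18, 6.52 and 3.85, then 3.63, 4.25 and 2.38. At 24 h it was lower in Col-0 by -1.07 ± 0.36 (edgeR adjusted p = 0.0475) and stood at -1.0005 ± 0.3561 in the line (adjusted p = 0.0609), or 0.00903 with the block. The call in Col-0 held in 2 of 6 repeats with a library left out. CDKA;1 (AT3G48750), the kinase of both transitions, kept 24.5 to 36.2 CPM in every Col-0 library and 21.6 to 33.4 in every library of the line. It was called in no comparison, and at 24 h in Col-0 its value was 0.06 ± 0.15 (adjusted p = 0.823).

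No member differed between the labelled line and Col-0 at 0, 2 or 24 h, where 0.155%, 0.176% and 0.181% of all genes did. At an unadjusted p under 0.05 edgeR had 0, 0 and 1 member (CYCA2;4 at 24 h, 0.63 ± 0.29 higher in the line), and DESeq2 and the replicate block called none. The interaction of genotype and salt called none of the 34 members at 2 or 24 h, and 0% of all genes, with 0 members at an unadjusted p under 0.05 and none by DESeq2 or with the block. The interaction of KN was 0.03 ± 0.58 at 24 h and that of MCM3 0.37 ± 0.49 at 2 h, and with such errors a missed threshold does not show that the genotypes respond alike.

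Across the experiments the early steps overlapped: the 4 helicase genes lower at 2 h in Col-0 are among the 6 lower at 3 h in the time course, and without the block MCM4 and MCM7 were called there alone. The 24 h step differed in size. The S phase median against 0 h was 0.08 in the time course and -0.75 in Col-0 of the mutant experiment, and the mitotic median was -0.70 and -1.63. The tables were counted and scaled separately and cover different genes, and this difference was not tested.

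Other genes of the 2 processes, from lists beside the members, are given by their counts. Of 24 further replication genes (origin, polymerase and ligase subunits) in the time course 7 were lower at 3 h (6.54% of all genes). At 6 h 4 were lower (2.24%), at 12 h 7 (1.64%) and at 24 h 1 (6.15%). From 3 to 24 h 9 rose (13.7% of all genes), with a list median of 0.56. In the mutant experiment 5 of 29 were lower at 24 h in Col-0 (8.34% of all genes) and 7 in the line (8.43%). With the block 13 and 17 were lower (17% and 17.9% of all genes). ORC4, a subunit of the origin recognition complex, had 9.60 and 7.74 CPM (0 h) and 2.78 and 2.77 (12 h) and did not come back, at -1.01 ± 0.19 on the log2 scale at 72 h (edgeR adjusted p = 0.00324). LIG1, the DNA ligase that joins Okazaki fragments, was lower at 12 h (-0.83 ± 0.17, adjusted p = 0.018) and rose from 3 to 24 h by 0.60 ± 0.17 (adjusted p = 0.0203). E2FA, an activator of S phase genes, was lower at 3 h by -0.75 ± 0.17 (adjusted p = 0.00979) and rose from 3 to 24 h by 1.13 ± 0.17 (adjusted p = 0.000456).

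The list median of 21 further mitotic genes in the time course was -0.36 (1 h), -0.48 (3 h), -0.24 (6 h) and -0.50 (12 h) against 0 h. It was -0.49 (24 h), -0.38 (48 h) and -0.18 (72 h). For the step from 3 to 24 h it was -2e-04, so this list median did not fall between these times. Of these 21 genes at most 1 was called lower than at 0 h at any time, against 1.64% (12 h) to 12.5% (72 h) of all genes. CKS1, a small partner of cyclin-dependent kinases, was that gene at 24 h, with 21.4 and 28.9 CPM at 0 h and 15.02 and 13.9 at 24 h (-0.80 ± 0.20, edgeR adjusted p = 0.0255). In the mutant experiment 12 of 26 were lower at 24 h in Col-0 (8.34% of all genes) and 13 in the line (8.43%), with list medians of -1.53 and -1.40. With the block 20 and 19 were lower (17% and 17.9% of all genes). RSW7, a kinesin of the spindle, went from 0.999, 3.75 and 1.42 CPM at 0 h to 0.257, 0.472 and 0.160 at 24 h in Col-0 (-2.77 ± 0.54, adjusted p = 0.00367). CCS52B, an activator of the anaphase-promoting complex, was lower in both genotypes at 24 h (-1.28 ± 0.35, adjusted p = 0.02, and -1.19 ± 0.35, adjusted p = 0.0286).

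Of the 9 replicative histone genes in the time course 3 were lower at 24 h (6.15% of all genes), and 9 of 9 had negative values then, with a median of -0.79. H4_h, a histone H4 gene that shares reads with its copies, had 26.1 and 43.8 CPM at 0 h and 17.4 and 17.9 at 24 h (-0.98 ± 0.28, edgeR adjusted p = 0.0417). Of 8 inhibitors of cyclin-dependent kinases tested in the time course 1 was higher at 1 h, against 8.74% of all genes. It was KRP6 (1.19 ± 0.30, edgeR adjusted p = 0.0168), while 4 of the 8 had negative values and the list median was 0.02. At 2 h in the mutant experiment 2 of 15 were higher and 0 lower in Col-0 (5.76% and 3.83% of all genes). In the line 1 was higher and 1 lower (3.61% and 2.25%). KRP6 was higher again at 2 h in that experiment. There KRP6 had 12.04, 14.95 and 17.3 CPM in Col-0 at 0 h and 24.6, 32.0 and 27.6 at 2 h, with no overlap (0.93 ± 0.15, adjusted p = 0.00156), and it fell by 0.84 ± 0.15 to 24 h (adjusted p = 0.00223).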

How the data were processed

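For the time course the authors deposited expected counts, 1 table for 16 libraries in which 1.42% of values were not whole, and these were rounded. For the mutant experiment the authors deposited counts, 1 sheet per library for 18 libraries, and the column for either strand was used. Without strand, reads of a gene and of an antisense partner cannot be told apart. The submitters' processing notes name STAR and TAIR10. Its version and the annotation were not given in the sources used here. Lines for unmapped and ambiguous reads were left out, and unmapped reads came to 3.95% to 5.87% of a library.

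Each experiment was fitted alone with edgeR 4.0.16 in R 4.3.3 (filterByExpr with the groups, TMM, quasi-likelihood test, all groups in 1 fit, two-sided). P-values were adjusted by Benjamini-Hochberg over all genes tested, with calls at an adjusted p below 0.05. SE is the absolute log2 fold change over the root of F. CPM were computed on TMM-scaled library sizes, and log2 values per library with a prior count of 2. The tests were also tried on data simulated with the spread estimated in each experiment. No libraries were identical, and replicates differed by more than counting noise (lowest chi-square per degree of freedom 11.86 and 30.34).

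The deposited sheet of the mutant experiment gives same-numbered libraries a shared batch. In 45 of 45 such pairs their deviations from the group means correlated above 0.1 (lowest 0.1745). Counts of members with the block are therefore given for each comparison there, those of the other lists for some comparisons, and blocked values for some of the named genes whose call they change. The alternatives were DESeq2 1.42.0, its size factors, no filter on low counts, only the compared groups, the block, counts not rounded and each library left out.

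The members and all gene lists were chosen with earlier results of these data known. The named genes are MCM3, PCNA1, TSO2, KN, AUR2, CYCA1;1, CDKB2;1, CYCB1;1, CYCD3;1, CDKA;1 and up to 4 members per class and 4 genes per list called in the most comparisons. Sequences, positions and promoter motifs were not analysed here. The 12 members outside the time course table were not analysed there.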

Additional observations from a re-analysis of the deposited data

Results flagged for a closer look

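For 9 members the change at 24 h differed from the change at 3 h by the test of the step between these times in the time course (edgeR). AUR2 fell by 2.06 on the log2 scale between 3 and 24 h. The S phase genes MCM2, MCM3, MCM4, MCM5, MCM6 and MCM7 rose by 1.23, 1.48, 1.16, 1.14, 1.64 and 0.99. PCNA1 rose by 1.04 and RNR1 by 0.93. With 2 libraries per time, no group was large enough to ask whether 1 library stands apart.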

How the results depend on the processing

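In the comparisons between times the difference of S phase and mitotic medians kept its direction under every alternative except at 1 h, where it lay near 0, and so did each class median against 0 h except the S phase median at 72 h (0.10, and -0.26 without replicate 1 of 72 h). The S phase median from 2 to 24 h turned from 0.53 to -0.30 in Col-0 and from 0.16 to -0.20 in the line without the 24 h library of batch 2. The number of members called moved with the fit. With the replicate block it was 8 at 2 h in Col-0 and likewise 8 in the labelled line (4 and 4 without it), 21 and 20 at 24 h (8 and 7), and 9 and 9 from 2 to 24 h (2 and 2), and the genotype and interaction counts stayed 0. In the time course 26 of 56 same-number correlations lay above 0.1, against 6 of 56 between different numbers. They ranged from -0.1784 to 0.6056, so any pairing by number was partial. With a replicate block there the counts for 1, 6 and 12 h were 2, 2 and 7 (1, 0 and 3 without it). DESeq2 called 2 members at 6 h, 7 at 12 h, 13 and 14 at 24 h in Col-0 and the line, and 7 and 7 from 2 to 24 h. With only the compared groups in the fit the counts for 1, 6, 12 and 72 h were 0, 2, 7 and 1, and in Col-0 8 at 2 h, 0 at 24 h and 0 from 2 to 24 h. Without a filter on low counts they were 5 at 12 h, 2 at 24 h and 1 from 2 to 24 h in Col-0, and the difference of S phase and mitotic medians at 24 h in the line was 0.70 instead of 0.50.

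Leaving out batch 2 in every group, chosen after seeing the data, gave 23 calls at 24 h and 8 from 2 to 24 h in Col-0, in the line 1 at 2 h but 11 at 24 h, and a difference of medians of -0.96 at 2 h in Col-0. With each library left out in turn the time course gave 0 to 1 calls at 1 h, 2 to 4 at 3 h, 1 to 2 at 12 h, 1 at 24 h, 2 to 4 at 48 h, 1 to 4 at 72 h and 6 to 8 from 3 to 24 h. Col-0 gave 0 to 4 at 2 h, 0 to 26 at 24 h and 0 to 14 from 2 to 24 h, and the line 0 to 1, 0 to 10 and 1 to 4. In the line 10 calls came without the 24 h library of batch 2, 4 of them among the 7. The difference of medians then ranged from -0.36 to 0.12 at 1 h, -0.95 to -0.44 at 3 h, -0.56 to -0.18 at 12 h, 0.60 to 1.17 at 24 h, 0.22 to 0.67 at 72 h and 1.34 to 1.81 from 3 to 24 h. In Col-0 it ranged from -1.13 to -0.64 at 2 h, 0.8533 to 1.0968 at 24 h and 1.61 to 1.94 from 2 to 24 h, and in the line from -1.11 to -0.78 at 2 h. A lone library was assumed to vary like the other groups.

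Repeats were counted for the calls of the main fit, and for the comparisons with 0 h of MCM3, PCNA1, TSO2, KN, AUR2, CYCA1;1, CDKB2;1, CYCB1;1, CYCD3;1 and CDKA;1. These values kept their side of the threshold in 1131 repeats, lost the call in 211 and gained one in 47. The 1131 include uncalled values that stayed uncalled, so they do not measure how well the calls held. A further 11 uncalled values changed sign and moved by more than their SE. Calls gained by values outside this set are not in these numbers. The causes of these moves were not tested. Members under about 1 CPM, such as the B cyclins at 24 h, rest on few counts, which limits their folds. The count columns for a single strand were not tried, and promoter motifs were not analysed here.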
